A study of Mus musculus with 6 samples.

Results

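The genes described here are 10 antioxidant and detoxification genes that are widely used as readouts of the transcription factor NRF2: Nqo1, Gclc, Gclm, Hmox1, Srxn1, Txnrd1, Slc7a11, G6pdx, Gsr and Ephx1. They were chosen by symbol, and all 10 were among the 50600 genes in the deposited tables. RNA from whole mouse liver was sequenced in 6 libraries, 3 from mice lacking Dicer in the liver (Dicer LKO) and 3 from controls. All mice were of the C57BL/6 strain and about 1 month old, and both groups carried loxP-flanked Dicer alleles, with the genotype Dicerloxp/loxp;Alb-cre in Dicer LKO and Dicerloxp/loxp in controls. By the genotype label the controls carried the floxed alleles without Cre, while the series' design text calls them wild type and their titles read DicerAA, a name the labels do not explain. There was no group with Cre alone. The albumin promoter that drives this Cre is active in hepatocytes. Which other cells of the liver kept Dicer was not measured. Nothing in the labels states that the libraries of a group came from separate animals, so p-values measure the spread between these libraries, which may be partly technical.

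NRF2, encoded by Nfe2l2, is held at a low level by KEAP1, an adaptor that hands it to a CUL3 ubiquitin ligase. Oxidants and electrophiles modify KEAP1, NRF2 then accumulates, pairs with a small Maf protein and binds the antioxidant response element of its target genes, while BACH1 competes for the same elements and represses some of them, Hmox1 above all. In hepatocytes the targets supply glutathione and NADPH and detoxify drugs and peroxides. Dicer cuts precursor hairpins into mature microRNAs (miRNAs), which lower target mRNAs by pairing, through their seed, mainly with sites in 3′ untranslated regions.

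The core of the antioxidant response element, searched as TGACNNNGC on both strands, is shown for the genes whose promoter held it, because it is the sequence through which NRF2 is known to act. Promoters were the RefSeq windows of 300 bases (250 before and 50 after the start site, GRCm38.p6), and those of 7 of the 10 genes were searched (not Gclc, Hmox1 and Gsr). These 7 genes have 9 such windows, of which 4 held the core, each of a different gene. Among all genes 12.4% of 32851 windows held it, and 13.99% of 27025 genes had it in at least one of their windows. The sequences are written along the strand that reads the core, which is the strand opposite to the gene in all 4, with the core in capitals. A match is a description of the letters and not evidence of binding.
Srxn1, chr2:152105541-152105571: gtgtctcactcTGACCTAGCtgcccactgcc
Gclm, chr3:122245412-122245442: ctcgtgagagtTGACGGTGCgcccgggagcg
Txnrd1, chr10:82859103-82859133: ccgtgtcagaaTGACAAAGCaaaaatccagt
G6pdx, chrX:74428918-74428948: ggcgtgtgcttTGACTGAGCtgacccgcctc

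Library totals ran from 20539847 to 25049749 expected counts, except for 14141973 in control 3. In control 3 mitochondrially encoded genes took 10.2% of the counts, against 4.62% to 6.46% in the other libraries. Its log2 levels correlated with those of control 1 and control 2 at 0.964 and 0.965 across genes, where these 2 correlated at 0.977. Those of Dicer LKO 2 correlated with Dicer LKO 1 and Dicer LKO 3 at 0.980 and 0.971, where these 2 correlated at 0.989. Dicer1 itself was at 28.2 ± 3.46 CPM (the count scaled to library size with TMM factors; SD, n = 3) in Dicer LKO and at 56.0 ± 13.4 in controls, with every Dicer LKO library below every control library (adjusted p = 0.0622, edgeR quasi-likelihood test with Benjamini-Hochberg adjustment). The hepatocyte markers, Alb and Apoa1 among them, were abundant in all 6 libraries, and 0 of 8 were called by edgeR, DESeq2 or limma (0 with an unadjusted p under 0.05). Of the red cell markers 6 of 8 were called higher by edgeR, while Alas2 and Klf1, which also mark this lineage, had negative log2 fold changes and were not called. Called higher too were 3 of 8 bile duct, 3 of 10 stellate cell and fibroblast and 1 of 7 endothelial markers. In these 3 lists 2, 2 and 1 markers had negative log2 fold changes, the lowest -0.72, -2.32 and -0.0038. Over all genes 0.741% were called higher and 21% had an unadjusted p under 0.05 in edgeR. Of the 8 heart muscle markers tested none was called by edgeR (1 with an unadjusted p under 0.05) or DESeq2, and their summed level ran from 0.524 to 13.4 CPM in Dicer LKO and from 15.0 to 130 CPM in controls, highest in control 3. In Dicer LKO 1 and in Dicer LKO 2, 8 of the 11 heart muscle markers had 0 counts. Because whole tissue was sequenced, fewer cells of a type and less RNA per cell cannot be told apart in any value below.

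None of the NRF2 targets was called as changed in Dicer LKO liver. Of the 10 genes, 9 had enough reads to be tested, and 0 of the 9 passed an adjusted p under 0.05 in the edgeR quasi-likelihood test, where 1.29% of the 14314 genes tested were called. At an unadjusted p under 0.05 the count was also 0 of 9 in edgeR, against 21% of all genes, while DESeq2 and limma on log2 TPM each called 0, where they called 7.05% and 0.922% of all genes, and had 1 gene, Gclc, under 0.05 before adjustment. The 3 Dicer LKO and 3 control levels overlapped for all 9 genes, while they did not overlap for 28% of all genes tested. The log2 fold change was negative for 7 genes and positive for 2, with a median of -0.11 beside -0.013 for all genes, and the median of its absolute value was 0.14 beside 0.26. On the TPM scale Gclm turned positive (0.037), and other signs that depend on 1 library are given with each gene. The 95% intervals of the 9 fold changes together ran from 0.366-fold, the lower end for Gclc, to 2.96-fold, the upper end for Hmox1. A p that misses the threshold does not show that the levels were equal, and for Hmox1, G6pdx, Gclc and Nqo1 these intervals were wide.

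**Figure D1:**
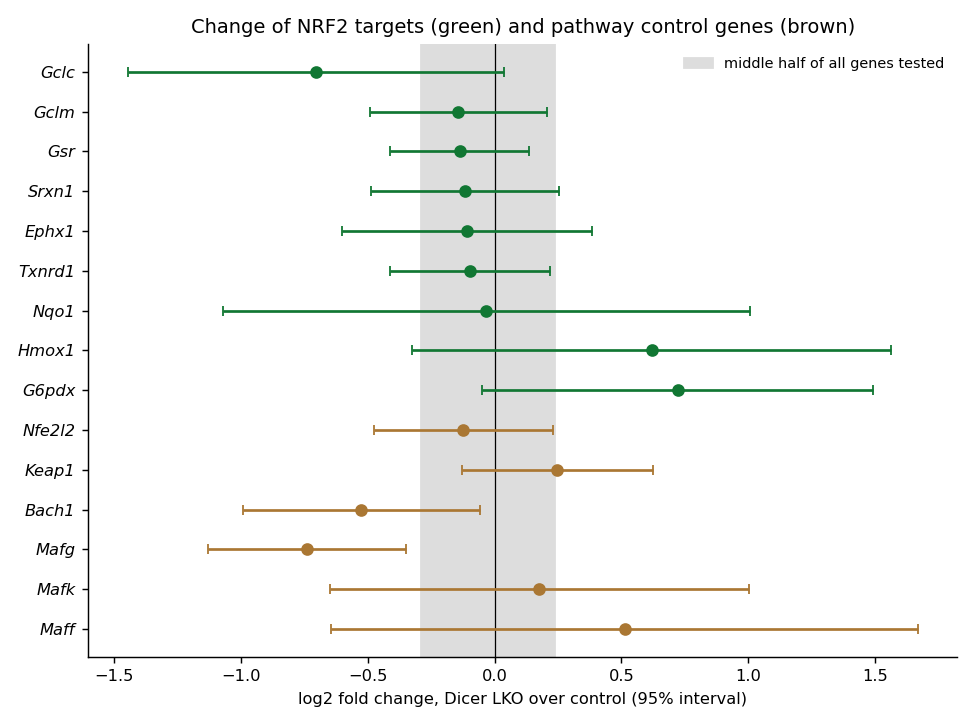
Log2 fold change of Dicer LKO over control (x axis) for the 9 tested NRF2 targets in green and 6 genes that control the pathway in brown, each with its 95% interval, and the range between the quartiles of all genes tested (-0.29 to 0.24) in grey. All 9 green intervals cross 0, and those of Bach1 and Mafg lie below it.

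The enzymes of glutathione synthesis include the catalytic subunit (Gclc) and the modifier subunit (Gclm) of glutamate-cysteine ligase, which carries out the rate-limiting step. Gclc (chromosome 9, 77754535 to 77794485, GRCm38) was at 146, 78.3 and 170 CPM in Dicer LKO 1, 2 and 3 and at 189, 169 and 285 CPM in control 1, 2 and 3. The groups met only narrowly, since Dicer LKO 3 lay just above control 2, and the spread came from a low Dicer LKO 2 and a high control 3. Its log2 fold change was -0.71 ± 0.32 (SE, edgeR; 95% interval -1.45 to 0.04), the most negative of the 9, with an adjusted p of 0.256. Without Dicer LKO 2 the log2 fold change was -0.40, without control 3 it was -0.42, and without both it was -0.18 (edgeR adjusted p = 0.684). Gclm (chromosome 3, 122245557 to 122270732) was at 178, 146 and 178 CPM in Dicer LKO and at 192, 188 and 175 CPM in controls. The log2 fold change of Gclm was -0.14 (95% interval -0.49 to 0.21, edgeR adjusted p = 0.633). The Gclm level thus stayed within a narrow band, with Dicer LKO 2 as the lowest library. Its counts carry some uncertainty of assignment: a transcribed pseudogene, Gm6061, overlaps it on the same strand over 492 bases, Gm17494 overlaps it on the opposite strand, and its expected counts were fractional in all 6 libraries.

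Slc7a11 encodes the subunit of the cystine importer xCT that carries cystine, the source of cysteine for glutathione. Its expected counts were 3, 1 and 4 in Dicer LKO and 1, 3 and 0 in controls. These counts are too few to test, and the count of 0 in control 3 allows up to 3 counts in that library. Glutathione reductase (Gsr, chromosome 8, 33652523 to 33698163), which restores glutathione from its oxidised form with NADPH, was at 68.0, 62.4 and 69.6 CPM in Dicer LKO and at 69.5, 75.4 and 75.4 CPM in controls. Dicer LKO 3 and control 1 differed by a hair, so the groups overlapped through these libraries alone. Gsr had the smallest standard error of the 9, with a log2 fold change of -0.14 ± 0.12 (SE, edgeR; 95% interval -0.41 to 0.14, adjusted p = 0.552), an interval that runs from 0.751-fold to 1.10-fold.

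Thioredoxin reductase 1 (Txnrd1, chromosome 10, 82833951 to 82897712) keeps cytosolic thioredoxin reduced, and sulfiredoxin (Srxn1, chromosome 2, 152105516 to 152111376) repairs overoxidised peroxiredoxins. Txnrd1 was at 116, 107 and 106 CPM in Dicer LKO and at 129, 107 and 115 CPM in controls. Srxn1 was at 28.4, 23.3 and 31.4 CPM in Dicer LKO and at 26.2, 30.1 and 33.9 CPM in controls. Both genes had libraries of each group interleaved, and the log2 fold changes were -0.10 for Txnrd1 (95% interval -0.41 to 0.22) and -0.12 for Srxn1 (-0.49 to 0.25), with edgeR adjusted p of 0.730 and 0.722. The Srxn1 value was 0.033 without Dicer LKO 2. Eid3 overlaps Txnrd1 on the same strand, so reads in the shared 1305 bases could be assigned to either gene.

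Glucose-6-phosphate dehydrogenase (G6pdx, chromosome X, 74409483 to 74429194) opens the pentose phosphate pathway and supplies NADPH. It was at 4.36, 6.24 and 8.09 CPM in Dicer LKO and at 2.79, 5.52 and 2.997 CPM in controls. Dicer LKO 2 and 3 lay above all controls, while Dicer LKO 1 lay below control 2. Its log2 fold change of 0.72 ± 0.33 (SE, edgeR; 95% interval -0.05 to 1.49, adjusted p = 0.264) was the most positive of the 9, and it was 1.13 without control 2. On the log2(TPM + 0.1) scale, which divides by transcript length, the same difference was only 0.12 (limma adjusted p = 0.857). G6pdx lies across Ikbkg, which is transcribed from the opposite strand and shares 19712 bases with it. Because the strand setting of the counting is not given in the sources used here, reads from these genes may not have been told apart.

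Nqo1 encodes a quinone reductase and is the gene most often used to read NRF2 activity. Nqo1 (chromosome 8, 107388225 to 107403206) was at 5.32, 1.43 and 5.46 CPM in Dicer LKO and at 4.06, 4.32 and 4.14 CPM in controls. Here 2 Dicer LKO libraries lay above all controls and the third lay below all of them, while the controls hardly differed (4.17 ± 0.135 CPM against 4.07 ± 2.29, SD, n = 3 each). The log2 fold change was -0.033 ± 0.45 (SE, edgeR, 95% interval -1.07 to 1.01, adjusted p = 0.977), and without Dicer LKO 2 it was 0.41 (adjusted p = 0.374). Without control 2 the Nqo1 value was 0.015. Microsomal epoxide hydrolase (Ephx1, chromosome 1, 180976210 to 181020904), which opens reactive epoxides, was at 211, 131 and 211 CPM in Dicer LKO and at 216, 188 and 192 CPM in controls. Again Dicer LKO 2 alone stood low, and the other Dicer LKO libraries sat inside the control range. The log2 fold change of Ephx1 was -0.11 (95% interval -0.60 to 0.38, edgeR adjusted p = 0.811), and 0.13 without Dicer LKO 2.

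Haem oxygenase 1 (Hmox1, chromosome 8, 75093621 to 75100589) breaks haem into biliverdin, iron and carbon monoxide, and in liver it is also made by Kupffer cells, the resident macrophages that clear old red cells. Hmox1 was at 18.9, 32.8 and 17.8 CPM in Dicer LKO and at 15.1, 22.04 and 8.03 CPM in controls. The highest library was Dicer LKO 2 and the lowest control 3, and control 2 lay above Dicer LKO 1 and 3. The log2 fold change of 0.62 ± 0.40 (SE, edgeR; 95% interval -0.33 to 1.56, adjusted p = 0.428) became 0.33 without Dicer LKO 2, 0.34 without control 3, 1.03 without control 2, and -0.014 with Dicer LKO 2 and control 3 both left out.

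Markers of macrophages and of red cells are given beside Hmox1. The 12 macrophage and Kupffer cell markers all had positive log2 fold changes, with a median of 0.80. None was called by edgeR, 6 had an unadjusted p under 0.05 (21% of all genes), 6 were higher without overlap (12.7% of all genes), and 2 were called higher by DESeq2 (3.12% of all genes). Their summed level ran from 595 to 769 CPM in Dicer LKO and from 292 to 636 CPM in controls, no marker was at 0 in any library, and all 12 were lowest in control 3, where Hmox1 was also lowest. The share of all genes lowest in control 3 was not counted, so how common this is remains unknown. The summed level of the red cell markers ran from 1145 to 2135 CPM in Dicer LKO and from 284 to 381 CPM in controls, a sum made up mostly of the 4 globin genes. In the same list Alas2, the erythroid enzyme of haem synthesis, was lower without overlap (62.7 ± 14.7 against 93.5 ± 10.5 CPM, SD, n = 3 each; edgeR adjusted p = 0.156), and Klf1, an erythroid transcription factor, was at 3.10 ± 0.674 against 4.54 ± 1.62 CPM (adjusted p = 0.363). The part of these cells in the Hmox1 levels was not tested.

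**Figure D2:**
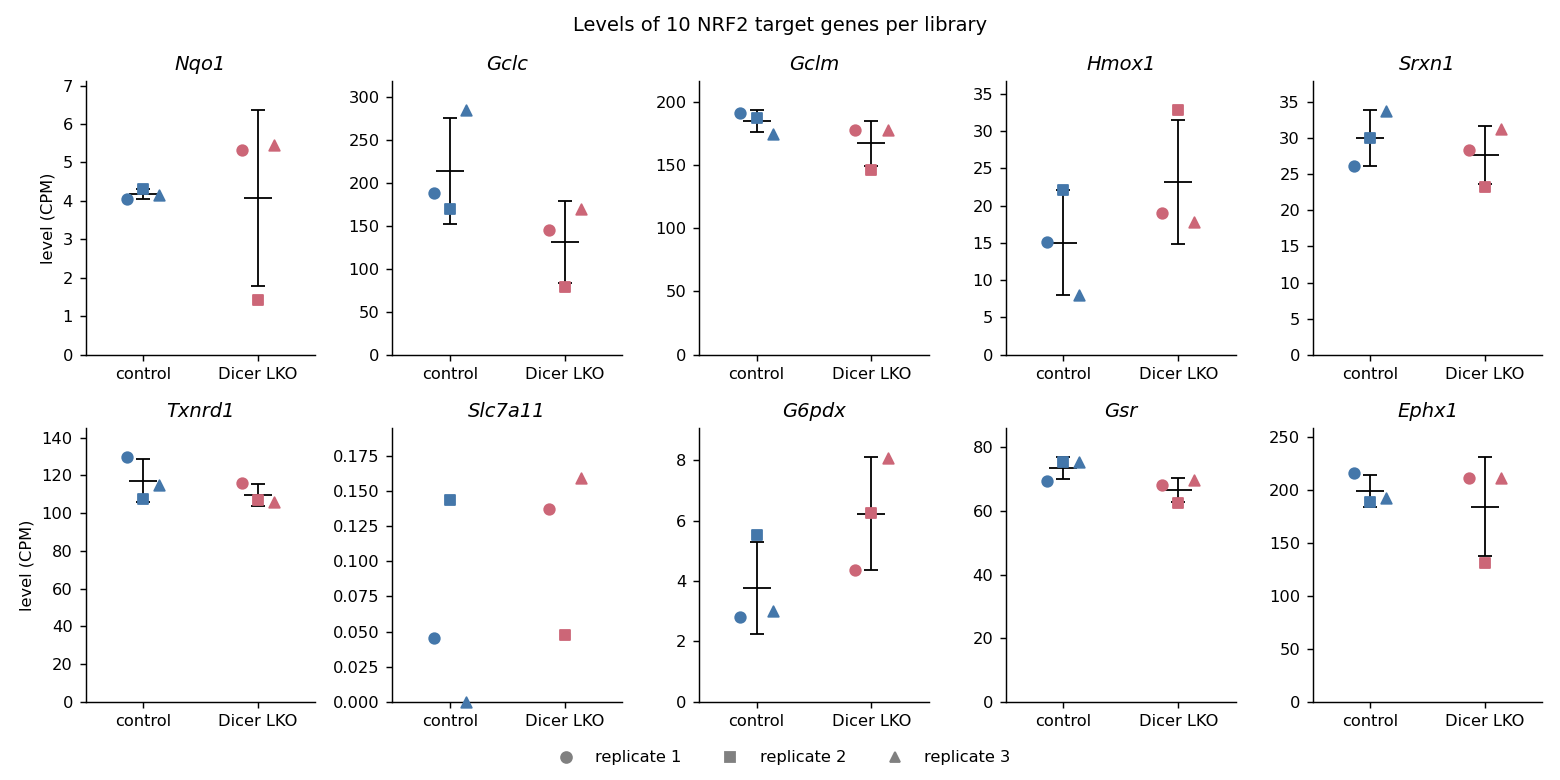
Level of each of the 10 NRF2 targets in CPM (y axis, from 0) in the 3 control libraries (blue) and the 3 Dicer LKO libraries (red), with mean and SD as black bars except for Slc7a11, whose counts were 0 to 4 per library. Marker shapes give replicate numbers, and Dicer LKO 2 (red square) is the lowest library for 6 of the 9 tested genes and the highest for Hmox1.

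To compare levels between genes, the deposited TPM, which scale for library size and transcript length, were used. In control liver the order was Ephx1 (94.0 ± 8.56 TPM, SD, n = 3), Gclm (59.7 ± 3.52), Gclc (49.0 ± 15.7), Txnrd1 (30.2 ± 3.38), Gsr (21.6 ± 1.21), Srxn1 (9.02 ± 1.20), Hmox1 (7.93 ± 3.43), Nqo1 (2.24 ± 0.0551) and G6pdx (1.55 ± 0.436), with Slc7a11 listed at 0 to 0.01 TPM. Only the neighbours Gclm and Gclc, and Srxn1 and Hmox1, overlapped between their control libraries. The quinone reductase gene and the xCT gene were thus near the bottom of the list in this tissue, and the epoxide hydrolase and glutamate-cysteine ligase genes at the top.

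The deposited tables also give, per gene and library, a mean transcript length weighted by the estimated abundance of each annotated transcript. For 4 of the 8 tested genes with a length that varied, this length did not overlap between the groups, 2 shorter (Gclm and Gsr) and 2 longer (G6pdx and Gclc) in Dicer LKO. Among the 10512 genes whose length varied the share was 14.6%, with 6.01% shorter and 8.58% longer. For Gclm it was 2036, 1882 and 2173 bases in Dicer LKO and 2406, 2522 and 2431 bases in controls (2030 ± 146 against 2453 ± 61.2, SD, n = 3 each; exact two-sided permutation test p = 0.1, the smallest that 3 against 3 allows). The longest of the 7 annotated Gclm transcripts has 5589 bases and the others have 292 to 1088. A lower mean can come from a smaller share assigned to the longest or from a shift among the others. The shares of single transcripts were not examined. For Gsr the length was 2673 bases in every control, the length of its longest transcript, and 2418, 2537 and 2586 bases in Dicer LKO. For G6pdx it was the other way round, with 2652 bases in every Dicer LKO library and 2140, 2357 and 1436 bases in controls. The Gclc lengths differed little, from 3405 to 3423 in Dicer LKO and from 3394 to 3404 in controls. These lengths are estimates from reads that several transcripts share, and for G6pdx they rest on few reads.

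**Figure D3:**
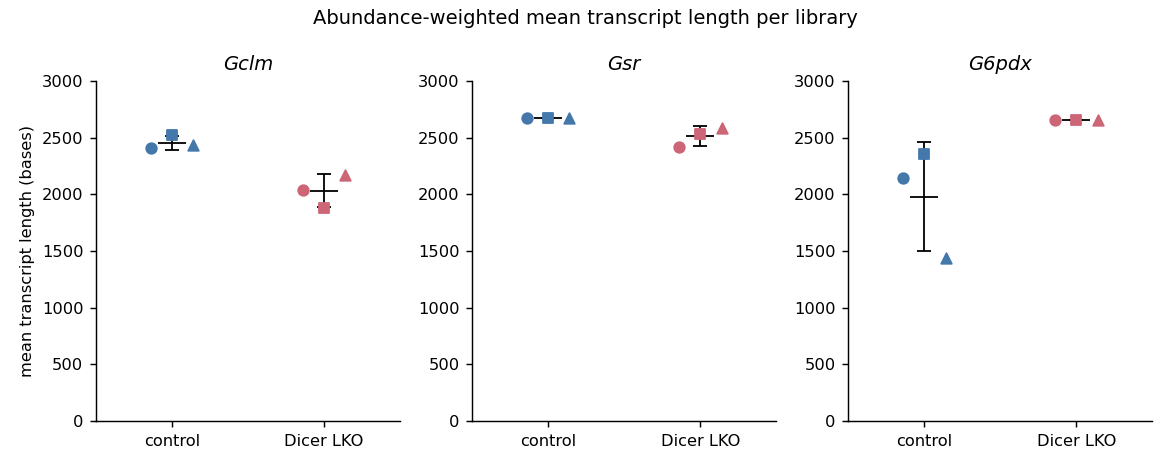
Mean transcript length in bases (y axis, from 0) of Gclm, Gsr and G6pdx in the 3 control libraries (blue) and the 3 Dicer LKO libraries (red), with mean and SD as black bars and marker shapes for replicates 1 (circle), 2 (square) and 3 (triangle). Gclm and Gsr are shorter in every Dicer LKO library than in every control, and G6pdx is longer.

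Since Dicer makes miRNAs, the 3′ untranslated regions of the genes (the longest per gene in GENCODE M21, GRCm38) were searched for matches to bases 2 to 8 of 9 miRNAs expressed in liver (RefSeq mature sequences). The 9 were let-7a-5p, miR-192-5p, miR-26a-5p, miR-30a-5p, miR-22-3p, miR-21a-5p, miR-101a-3p, miR-148a-3p and miR-29a-3p. No other miRNA was searched, so other abundant liver miRNAs may have matches that are not given here. The miRNAs that matched the tested glutathione, thioredoxin and quinone reductase genes are printed with the seed in capitals, followed by the matched stretches with the match in capitals.
miR-192-5p: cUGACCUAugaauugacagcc
miR-26a-5p: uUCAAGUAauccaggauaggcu
miR-30a-5p: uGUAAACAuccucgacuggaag
Nqo1, miR-192-5p match: gaaatactcttcTAGGTCAtttatgca
Gclm, miR-26a-5p match: ttaaatttgaacTACTTGAatttaaac
Txnrd1, miR-26a-5p match: acttggctaatcTACTTGAactgcatc
Gclc, miR-30a-5p match: cagagtttcaaaTGTTTACtgtaaatc
Gclm, miR-30a-5p match: attcattcctcgTGTTTACcttaaatt
Among 12657 genes with such a region, 7.2% held the miR-192-5p match TAGGTCA, 11.3% the miR-26a-5p match TACTTGA and 16.1% the miR-30a-5p match TGTTTAC. Both Gclm matches lie in the 5589-base transcript and in none of the other 6. Of the remaining genes Srxn1 matched miR-22-3p, miR-101a-3p and miR-29a-3p, and Slc7a11, with the longest region (7367 bases), matched 7 of the 9. Hmox1, G6pdx, Gsr and Ephx1 matched none of these 9. None of the genes with a match that could be tested was called as higher in Dicer LKO, where 0.741% of all genes were. At so small a share, few genes without a call say little. Nqo1, Gclc, Gclm, Txnrd1 and Srxn1 all had negative log2 fold changes with all 6 libraries included, except that Gclm was at 0.037 on the TPM scale. The median of all genes was -0.013. Of the tested genes without a match, Gsr (-0.14) and Ephx1 (-0.11) were negative too, and Hmox1 (0.62) and G6pdx (0.72) were positive. Without Dicer LKO 2 the values of Nqo1, Srxn1 and Ephx1 were 0.41, 0.033 and 0.13. Whether these miRNAs act on the genes was not tested.

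The genes that control NRF2 were examined next. Nfe2l2 was at 55.8, 49.8 and 57.0 CPM in Dicer LKO and at 70.3, 56.3 and 50.6 CPM in controls (log2 fold change -0.12, edgeR adjusted p = 0.690). Keap1 was at 42.6, 56.9 and 39.0 CPM in Dicer LKO and at 37.4, 38.1 and 41.1 CPM in controls (log2 fold change 0.25, edgeR adjusted p = 0.432). The mRNAs of NRF2 and of its inhibitor therefore overlapped between the groups, and neither was called. The Keap1 value was 0.11 without Dicer LKO 2.

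The repressor gene Bach1 and the partner gene Mafg did not overlap between the groups. Bach1 was at 49.3, 31.6 and 51.4 CPM in Dicer LKO and at 72.3, 61.3 and 56.9 CPM in controls, with a log2 fold change of -0.53 ± 0.20 (SE) and an edgeR adjusted p of 0.195, and without Dicer LKO 2 it was -0.30 (adjusted p = 0.395). Mafg was at 37.3, 29.9 and 43.1 CPM in Dicer LKO and at 52.9, 65.7 and 65.7 CPM in controls, with a log2 fold change of -0.74 ± 0.17 (SE) and an edgeR adjusted p of 0.0773. By DESeq2 Mafg was called (log2 fold change -0.73, adjusted p = 0.0107), and over all other settings its adjusted p reached 0.217. The other small Maf genes had log2 fold changes of 0.18 (Mafk, edgeR adjusted p = 0.816) and 0.51 (Maff, 0.601). Over the 13 control genes 0 were called by edgeR (4 with an unadjusted p under 0.05, beside 21% of all genes), 2 were called by DESeq2, both lower, beside 3.93% of all genes, and 4 did not overlap between groups, all lower, where 15.4% of all genes were lower without overlap. Besides Bach1 and Mafg these 4 were Gsk3b, a kinase that marks NRF2 for degradation, and Syvn1, an ubiquitin ligase of the endoplasmic reticulum, named after their values were seen (log2 fold changes -0.58 and -1.31, edgeR adjusted p = 0.134 and 0.0695).

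Among 32 further reported NRF2 targets tested, 0 were called by edgeR (14 with an unadjusted p under 0.05, beside 21% of all genes), and DESeq2 called 5, all lower, beside 3.93% of all genes. Their median log2 fold change was -0.13, with 12 positive and 20 negative. It was -0.37 on the log2 TPM scale and -0.25 with library totals, scales that lowered the median of all genes by 0.11 and 0.12, and it was -0.011 without Dicer LKO 2 and control 3. Of the 32 genes 7 were higher and 8 lower without overlap between groups, where 12.7% and 15.4% of all genes were. Ftl1, the ferritin light chain, was at 1832 ± 376 CPM in Dicer LKO and 1928 ± 306 CPM in controls (SD, n = 3 each; log2 fold change -0.074, edgeR adjusted p = 0.898). Gstp1, a glutathione transferase, was at 472, 178 and 379 CPM in Dicer LKO and at 1149, 876 and 1276 CPM in controls, a log2 fold change of -1.68 ± 0.36 (SE) with an edgeR adjusted p of 0.0727. Every Gstp1 level in Dicer LKO lay below every control level. The expected counts of Gstp1 were fractional in all 6 libraries, so they carry some uncertainty of assignment. The DESeq2 calls besides Gstp1 were the export pumps Abcc2 (-0.80) and Abcc3 (-1.35), malic enzyme Me1 (-1.38) and Osgin1 (-1.26), given as edgeR log2 fold changes and named after their values were seen. Their edgeR adjusted p ran from 0.0952 to 0.198. The 7 genes higher without overlap, also named after their values were seen, were Mt1, Akr1b8, Ptgr1, Cbr3, Cbr1, Abcc4 and Prdx1. Their log2 fold changes ran from 0.31 (Prdx1) to 2.98 (Mt1), with edgeR adjusted p from 0.0926 (Abcc4) to 0.394 (Mt1). Mt1, with the largest change of the 32 genes, was at 1026 ± 646 CPM in Dicer LKO and 130 ± 205 CPM in controls (SD, n = 3 each).

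The pathways that the NRF2 targets feed showed 0 edgeR calls each, and limma on log2 TPM called 0 in each of these lists too. Over all genes edgeR called 1.29% and limma 0.922%, and 21% had an unadjusted p under 0.05 in edgeR. DESeq2 called 3.12% of all genes as higher and 3.93% as lower. The glutathione list (24 tested, 5 with an unadjusted p under 0.05) had a median log2 fold change of 0.12, which was -0.085 on the log2 TPM scale and 0.0052 with library totals, and its most abundant genes were Mat1a, which makes S-adenosylmethionine (0.68, edgeR adjusted p = 0.211), and the microsomal transferase Mgst1 (-0.21, 0.620). DESeq2 called 1 gene of this list, Gpx3, as higher (edgeR log2 fold change 2.57, edgeR adjusted p = 0.0852). The thioredoxin and peroxide list (22 tested, 1 with an unadjusted p under 0.05, 0 called by DESeq2) had a median of 0.0011, with -0.51 for catalase (Cat, edgeR adjusted p = 0.308) and 0.31 for peroxiredoxin 1 (Prdx1, 0.363). The NADPH list (13 tested, 1 with an unadjusted p under 0.05) had a median of 0.015, with -0.25 for Aldh1l1 and 0.33 for H6pd (edgeR adjusted p = 0.582 and 0.422), and DESeq2 called 1 gene, Me1, as lower. On the log2 TPM scale the medians of these lists were -0.096 and -0.065. Close relatives of the 10 genes (7 of 11 tested, 1 with an unadjusted p under 0.05, 0 called by DESeq2) had a median of -0.15 (-0.31 on the log2 TPM scale, 0.094 without Dicer LKO 2 and control 3), with -0.60 for Ephx2 and -0.15 for Nqo2 (edgeR adjusted p = 0.300 and 0.747).

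The haem and iron list (9 tested, 0 called by edgeR, DESeq2 or limma, 2 with an unadjusted p under 0.05 in edgeR, beside 21% of all genes) had a median of 0.16, which was 0.076 on the log2 TPM scale and 0.051 with library totals. Hmox2, the constitutive haem oxygenase, was at 44.6, 56.0 and 47.2 CPM in Dicer LKO and at 32.3, 38.6 and 26.2 CPM in controls, named after its values were seen (log2 fold change 0.61 ± 0.17 SE, edgeR adjusted p = 0.112). Unlike those of Hmox1, the Hmox2 levels did not overlap between groups, although the log2 fold changes of both genes were alike in size, 0.62 and 0.61. A difference between these genes was not tested. The plasma scavengers of haem and haemoglobin, Hpx and Hp, had log2 fold changes of 1.37 and 1.27 (edgeR adjusted p = 0.253 and 0.310).

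**Figure D4:**
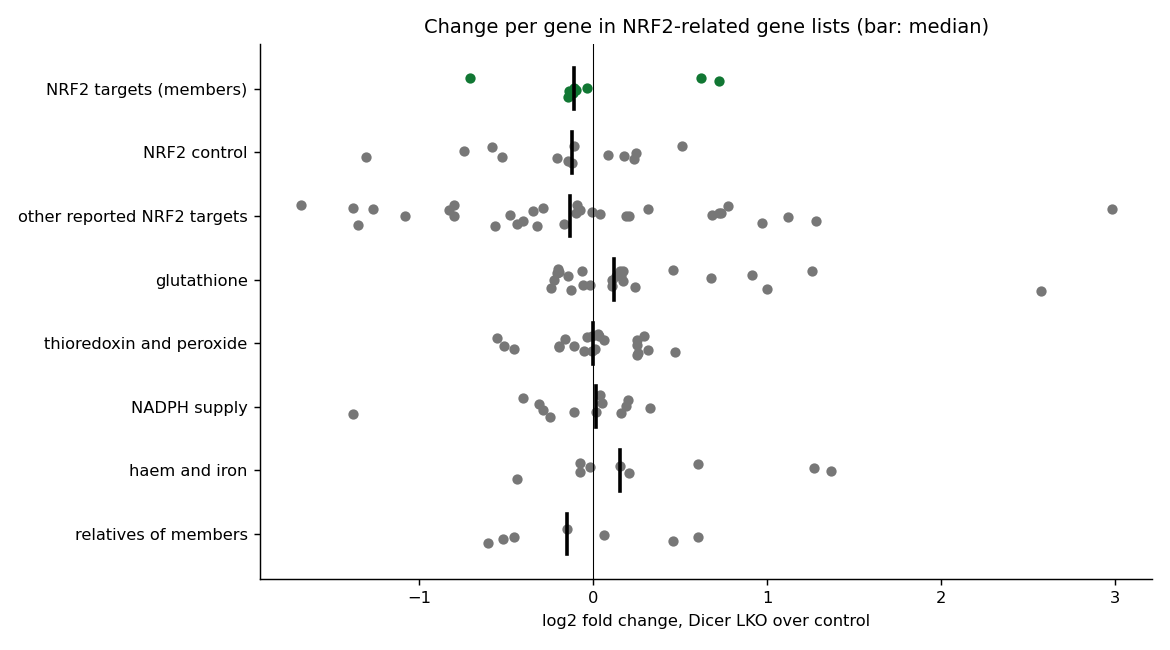
Log2 fold change of Dicer LKO over control (x axis) for each tested gene of 8 NRF2-related lists, 1 point per gene from the edgeR fit with TMM scaling, with the median of each list as a black bar. The 10 chosen targets (green, 9 tested) lie between -0.71 and 0.72, and the medians of all 8 lists lie between -0.15 and 0.16.

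Much of the spread in the Dicer LKO group came from 1 library, Dicer LKO 2, singled out after its values were seen. It was the lowest of the 6 libraries for Nqo1, Gclc, Gclm, Srxn1, Gsr and Ephx1, 6 of the 9 tested genes, where it was the lowest for 20.1% of all genes. It was also lowest for 19 of the 32 further targets. As a percentage of the mean of Dicer LKO 1 and 3, its level was 26.5% for Nqo1, 49.7% for Gclc, 61.9% for Ephx1, 78.0% for Srxn1, 82.4% for Gclm, 90.7% for Gsr, 96.2% for Txnrd1, 100.3% for G6pdx and 178% for Hmox1. The median was 82.4% for the 9 genes, 70.3% for the 32 further targets and 100.04% for all genes, and 4 of the 9 and 20 of the 32 lay under 80%, where 20.1% of all genes did.

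The low levels in Dicer LKO 2 were most marked among the alpha-class glutathione transferases, named here after their values were seen, at 3.88% for Gsta1, 6.03% for Gsta2 and 15.5% for Gsta4 of the mean of the other Dicer LKO libraries. The Gsta1 value rests on a count of 1 in Dicer LKO 2, beside 24 and 34, and expected counts of Gsta1 and Gsta2 were fractional in all 6 libraries, as happens where reads are divided among similar genes. Gsta2, for example, was at 13.9, 1.10 and 22.4 CPM in Dicer LKO and at 13.3, 12.8 and 13.96 CPM in controls. Dicer LKO 2 was also the highest library for Hp (13861 CPM), Hpx (19863 CPM) and Mt1 (1769 CPM), a metallothionein gene, where 19.8% of all genes were highest. The 6 libraries fell in the same order for Hmox1 and for the haptoglobin gene Hp: Dicer LKO 2, control 2, Dicer LKO 1, Dicer LKO 3, control 1 and control 3. Hp was at 7402, 13861 and 6449 CPM in Dicer LKO and at 2658, 7506 and 1312 CPM in controls. Of the other 14313 genes tested, 28 (0.196%) had this order, Hp being chosen after its values were seen. Hpx and Mt1 ranked Dicer LKO 1 and 3 above control 2. This order is a description of 6 libraries, and what sets Dicer LKO 2 apart was not tested.

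**Figure D5:**
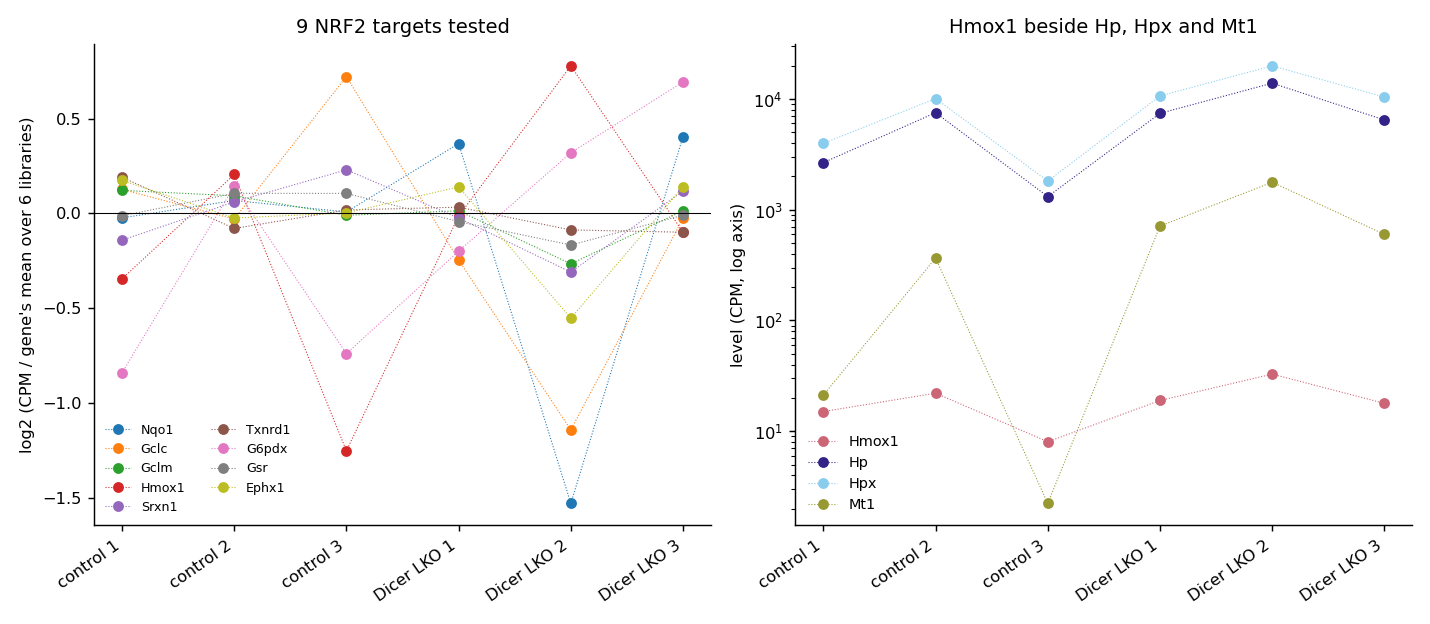
Left, log2 of CPM over the gene's mean across 6 libraries for the 9 tested NRF2 targets (y axis) by library (x axis), and right, CPM on a log axis of Hmox1 beside Hp, Hpx and Mt1; dotted lines only join the points of a gene. On the left most genes dip in Dicer LKO 2 while Hmox1 peaks there, and on the right Hmox1 and Hp rank the libraries alike.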

How the data were processed

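Per the labels, total RNA from frozen liver was sequenced in 3 Dicer LKO and 3 control samples. For each sample the authors deposited expected counts per gene (estimated reads, not normalized), TPM values and an abundance-weighted transcript length in bases. The columns are those that RSEM writes, per the file headers. The submitters' processing notes name CASAVA, Bowtie and the build hg19 without versions, although the gene identifiers belong to mouse. How reads were assigned to genes, and whether strand was used, is not given in the sources used here. Of the deposited identifiers, 50376 of 50600 matched GENCODE M21 (GRCm38), which gave positions.

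Expected counts (90.1 to 90.9% of the values above 0 were already within 0.001 of a whole number) were rounded and tested with edgeR 4.0.16 in R 4.3.3 (filterByExpr, TMM, robust quasi-likelihood fit, no covariates, all 6 libraries), with Benjamini-Hochberg adjustment over 14314 genes and a threshold of 0.05. The method was tested on simulated data. Standard errors were derived from each log2 fold change and its F statistic, and 95% intervals use the t distribution. Alternatives were library totals in place of TMM, DESeq2 1.42.0, limma 3.58.1 on log2(TPM + 0.1), no filter on low counts, no robust setting, a replicate block and leaving out each library. Leaving out Dicer LKO 2 and control 3 together was added after the values were seen.

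Named genes are the 10 targets, Dicer1, the pathway control genes, and of each other list up to 4 called genes or else the 2 most abundant. Genes marked as named after their values were seen come in addition. The members and lists were chosen with earlier results of these data known. The labels do not say whether replicate numbers pair the libraries. Same-numbered libraries correlated at 0.12, 0.06 and -0.12 in their deviations from the group means, and differently numbered ones at -0.18 to 0.13. So few libraries cannot settle the question, and the replicate block was therefore fitted as an alternative. Markers of heart muscle, neutrophils and other cell types were tested in the same fit; 0 of 5 tested neutrophil markers were called by edgeR (4 with an unadjusted p under 0.05) and 2 by DESeq2.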

Additional observations from a re-analysis of the deposited data

How the results depend on the processing

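No NRF2 target was called in any of 13 alternatives (117 values, all on the same side of the threshold), while Slc7a11, with 0 to 4 counts per library, could not be tested. The number of genes called over all genes was 185, and it was 103 with library totals, 1114 with DESeq2, 422 without a filter, 245 with the replicate block, 44 without Dicer LKO 2 and control 3, and from 23 (without control 3) to 389 (without control 1) when single libraries were left out. With the replicate block 3 targets (Gclc, Hmox1 and G6pdx) had an unadjusted p under 0.05 in edgeR, the median log2 fold change of the targets was -0.14, and no call among them changed. Library totals and TPM moved the median of all genes by -0.12 and -0.11, and the median of the targets to -0.22 and -0.24. Leaving out single libraries gave a median for the targets between -0.18 and 0.033, the latter without Dicer LKO 2. The sign turned for Gclm on TPM (0.037), for Nfe2l2 without control 1 (0.022), for Nqo1 without control 2 (0.015), and without Dicer LKO 2 for Nqo1 (0.41), Srxn1 (0.033) and Ephx1 (0.13). Over single libraries left out the values ran from -0.30 to 0.41 for Nqo1, from -0.21 to 0.033 for Srxn1, from -0.21 to 0.13 for Ephx1 and from -0.20 to 0.022 for Nfe2l2. Without Dicer LKO 2 and control 3 together they were 0.36 for Nqo1, -0.014 for Hmox1, 0.083 for Srxn1 and 0.059 for Ephx1. Mafg was called by DESeq2 (-0.73, adjusted p = 0.0107). The cause of these changes was not tested.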
